A study of Mus musculus with 8 samples.

Results

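Cadherins, claudins and Epcam, genes for proteins that hold epithelial or neural cells to their neighbours, were followed through 4 groups of mouse embryonic stem (ES) cell libraries. The 8 genes were chosen by name: Cdh1, Cdh2, Cdh3, Epcam, Cldn3, Cldn4, Cldn6 and Cldn7, out of 24921 gene symbols in the count tables, of which 17012 had at least 1 read. All cells were V6.5 ES cells, from a cross of C57BL/6 and 129 mice. One growth protocol is given for all samples, on gelatin in 2i medium, whose inhibitors block the kinases MEK and GSK3; whether the cells without LIF stayed in 2i is not stated, so LIF withdrawal may not be the only change of medium. In one line OCT4 bears an FKBP tag, so that a dTAG compound can send the tagged protein to degradation; it received DMSO or the compound (dTag9 in the labels) for 24 h. The wild-type (WT) cells without a tag were kept with LIF or went 5 days without it. Each group had 2 libraries. Separate cultures are not named in the labels, so p-values reflect how far these libraries spread, which could be technical variation alone. No untagged cells received the compound, and whether the tagged line is 1 clone is not stated.

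Cadherins are calcium-dependent adhesion receptors that bind the same cadherin on the next cell and are tied to actin by catenins. E-cadherin (Cdh1) holds ES cells and epithelia together, P-cadherin (Cdh3) is found in trophoblast and basal epithelia, and N-cadherin (Cdh2) in neural tissue and mesoderm; a change from E- to N-cadherin is a classic sign of epithelial-mesenchymal transition (EMT). Claudins are 4-pass membrane proteins that form the strands of tight junctions, and EPCAM is an epithelial surface glycoprotein that binds claudin-7 and keeps claudins from degradation.

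In the data as a whole, counted reads ranged from 7221451 to 11447468 per library. Levels are given as CPM, reads scaled to a common library size after TMM scaling for library composition, and calls are made at a Benjamini-Hochberg adjusted p of 0.05 in edgeR's quasi-likelihood test over the 10311 genes that passed a filter on low counts. The 11 listed ES cell markers summed to 7399 to 7445 CPM in DMSO and 8064 to 8106 CPM with LIF, and to 2455 to 2477 CPM with dTAG and 2373 to 2414 CPM without LIF. Of all tested genes, 20.3% were called lower and 20.1% higher with dTAG, and 34.4% lower and 34.0% higher without LIF. With dTAG 8 of 9 tested markers were called lower and 0 higher, and without LIF 7 lower and 2 higher. Those 2 were Tdgf1, at 1139 CPM without LIF (1.6-fold higher), and Utf1 (4.24-fold higher), while Tfcp2l1, the most abundant in DMSO at 3573 CPM, fell 33.3-fold without LIF to 96 CPM. Nanog and Esrrb, both on that list, have 4 and 2 accessions and held 0 reads and 1 read over all libraries. Pou5f1, which encodes OCT4, has 2 as well and is counted only in the sequence that sets them apart. Its level there was 77.5 and 77.8 CPM in DMSO and 84.6 and 90.2 CPM with dTAG. In WT cells it was 425 and 336 CPM with LIF, and 205 and 170.3 CPM without LIF. These levels do not measure all Pou5f1 RNA. The compound acts on the protein, so they do not check the degradation either. In every group the pair of libraries differed beyond sampling noise.

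Promoter sequence is shown for the 4 of the 8 genes that were called higher both with dTAG and without LIF and that matched, with 1 start each, in the RefSeq promoter table of build GRCm38.p6, so that their immediate upstream DNA can be read side by side. Each is the 250 bases before the transcription start, 5′ to 3′ on the gene's strand. Capitals mark the E-box CAGGTG or CACCTG, the site of SNAI and ZEB repressors, and the GC box CCGCCC or GGGCGG, both searched on both strands; no 2 matches overlapped. Epcam is at chr17:87635729-87635978 on the plus strand, Cldn4 at chr5:134946935-134947184 on the minus strand, Cldn3 at chr5:134985964-134986213 on the plus strand and Cldn6 at chr17:23679115-23679364 on the plus strand.
Epcam: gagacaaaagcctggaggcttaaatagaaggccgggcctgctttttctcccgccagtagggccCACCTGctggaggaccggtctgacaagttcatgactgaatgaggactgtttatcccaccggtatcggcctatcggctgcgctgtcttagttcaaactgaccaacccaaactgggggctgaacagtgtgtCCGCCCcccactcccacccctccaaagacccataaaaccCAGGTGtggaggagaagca
Cldn4: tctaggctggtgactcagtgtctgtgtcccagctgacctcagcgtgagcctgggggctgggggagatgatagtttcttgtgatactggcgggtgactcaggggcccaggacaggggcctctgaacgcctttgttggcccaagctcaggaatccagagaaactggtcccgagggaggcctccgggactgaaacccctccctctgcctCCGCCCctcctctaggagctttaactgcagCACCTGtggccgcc
Cldn3: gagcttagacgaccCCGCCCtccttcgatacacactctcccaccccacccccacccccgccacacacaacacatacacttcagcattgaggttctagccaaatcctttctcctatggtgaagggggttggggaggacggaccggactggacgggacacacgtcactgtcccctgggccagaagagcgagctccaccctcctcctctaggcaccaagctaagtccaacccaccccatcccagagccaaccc
Cldn6: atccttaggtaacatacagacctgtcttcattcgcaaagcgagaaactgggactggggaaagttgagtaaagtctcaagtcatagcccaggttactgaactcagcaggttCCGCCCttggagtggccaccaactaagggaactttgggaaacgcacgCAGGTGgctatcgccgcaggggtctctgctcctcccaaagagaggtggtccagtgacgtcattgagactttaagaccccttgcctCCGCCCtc

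An E-box lay in the windows of Epcam (2 matches, their first bases 187 and 19 bases before the start), Cldn4 (14 bases before) and Cldn6 (93 bases before), and none was in that of Cldn3. Of all 32851 promoters in the table, 17.2% held this E-box in the same 250 bases. The GC box lay in all 4 windows, with 2 matches in Cldn6, and in 32.7% of all promoters. Neither AACCGGTT, the site of Grainyhead-like (GRHL) epithelial factors, nor TATAAA or its reverse complement TTTATA was found in the 4 windows; 0.116% and 12.4% of all promoters hold them. Only exact matches were counted, so variants of any of these sites would be missed. The matches describe sequence and are not evidence of binding. Cldn7 also matched, with 2 starts, and is not shown.

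Of the 8 genes, 7 passed the filter on low counts; Cdh3 did not. Cdh1, Cdh2, Epcam, Cldn3, Cldn4 and Cldn6 have 1 RefSeq accession each and reached the filter's minimum in both libraries of all 4 groups, and Cldn7 did so in 3 groups. Cldn7 and Cdh3 have 2 accessions each. Reads in sequence that 2 accessions share are assigned to neither in this kind of counting, so these 2 genes are measured in their distinguishing sequence alone, and a low count there says nothing about expression.

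**Figure D1:**
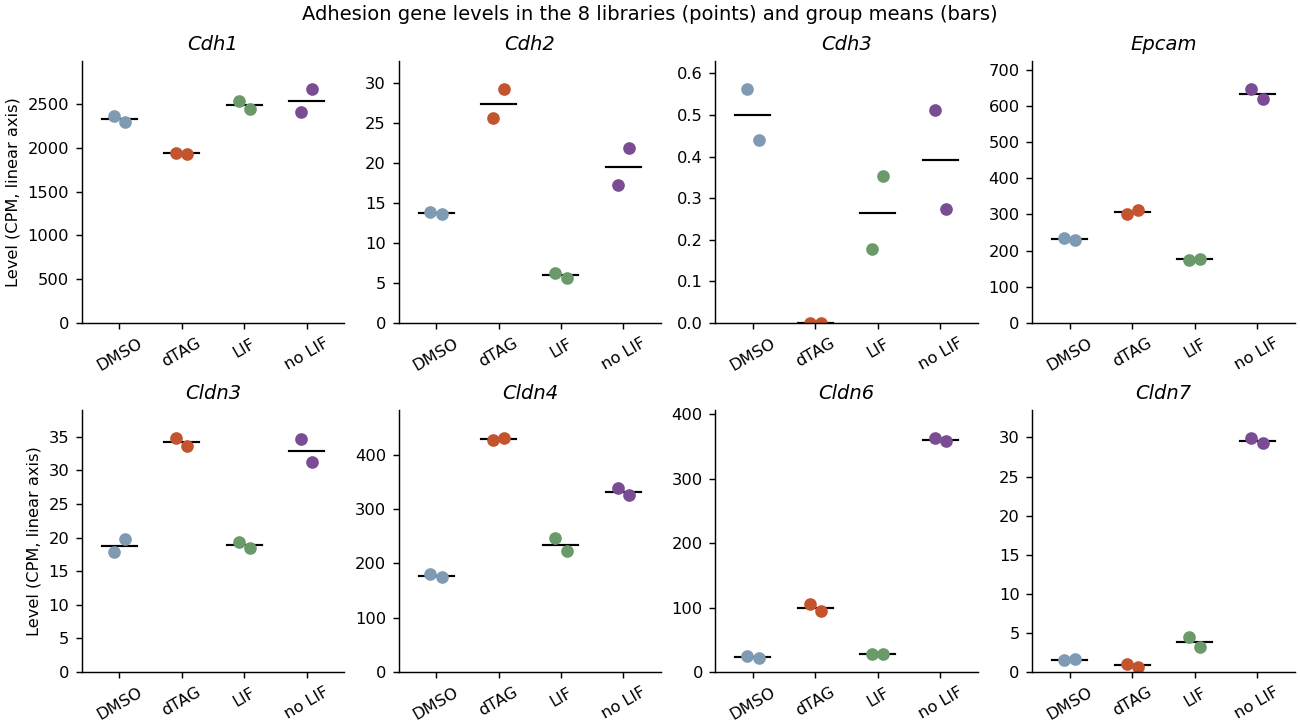
Level of each of the 8 genes in CPM (vertical axes, linear, each gene on its own scale) in the 4 groups (horizontal axes); points are the 2 libraries and the bar is their mean. Cdh1 stays between 1928 and 2672 CPM in all libraries, Cldn6 rises to 358 and 363 CPM without LIF, and Cdh3 rests on 22 reads in all.

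Cdh1 was the member with the highest level and the smallest change. Its level was 2364 and 2299 CPM under DMSO against 1946 and 1928 CPM under dTAG, so both treated libraries lay below both controls. The fall was 1.2-fold, with a log2 fold change of -0.27 (SE 0.05, edgeR adjusted p = 1.9e-04). In WT cells Cdh1 was read at 2536 and 2448 CPM with LIF and at 2408 and 2672 CPM after 5 days without it. These libraries overlapped, and the log2 fold change was 0.03 with a 95% interval of -0.08 to 0.14 (edgeR adjusted p = 0.67), so a change of the size seen with dTAG lies outside the interval. The 2 responses differed by -0.29 on the log2 scale (SE 0.07, edgeR adjusted p = 0.0017).

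Cdh2, the neural and mesodermal cadherin, rose in both comparisons from a low level. The DMSO libraries held 13.8 and 13.6 CPM and the dTAG libraries 25.6 and 29.2 CPM. Both dTAG values lay above both controls, a 2-fold rise (95% interval of the log2 fold change 0.72 to 1.28, SE 0.14, edgeR adjusted p = 9.7e-07). WT cells gave 6.27 and 5.65 CPM with LIF and 17.2 and 21.8 CPM without it, a 3.2-fold rise with no overlap (log2 fold change 1.68, SE 0.16, edgeR adjusted p = 1.0e-09). Its response to dTAG was smaller than that to LIF withdrawal by 0.68 on the log2 scale, as the difference of -0.68 (SE 0.22, edgeR adjusted p = 0.010) shows. From lowest to highest the groups ran LIF, DMSO, no LIF and dTAG, and no 2 neighbours in that order overlapped.

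Set against each other per transcript length, the 2 cadherins stayed far apart in every library. Per kilobase of transcript, Cdh1 stood at 526 ± 10.3 CPM in DMSO, 437 ± 2.81 with dTAG, 563 ± 14 with LIF and 573 ± 42.1 without LIF (SD, n = 2). Cdh2 stood at 2.83 ± 0.017, 5.66 ± 0.52, 1.23 ± 0.0907 and 4.03 ± 0.668 CPM per kilobase in the same groups (SD, n = 2). The ratio of Cdh1 to Cdh2 per length was 188 and 184 in the DMSO libraries and 83.1 and 72.3 with dTAG. It was 442 and 474 with LIF and 153 and 134 without. In each of the 8 libraries Cdh1 thus exceeded Cdh2 by at least 72.3 times, and the ratio was lower in every dTAG and no-LIF library than in either of its controls.

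Cdh3, which lies next to Cdh1 on chromosome 8, could not be followed. Its counted reads numbered 4 and 5 in DMSO, 0 and 0 with dTAG, 2 and 3 with LIF, and 6 and 2 without LIF. The pooled level was 0.487 CPM in DMSO (exact 95% Poisson interval 0.223 to 0.924). With dTAG it was 0 CPM, with an interval of 0 to 0.203. Such intervals cover counting error only. The DMSO level of Cdh3, in the few reads of its distinguishing sequence, was 2.95-fold above a floor of 3 reads over the dTAG group (0.165 CPM). That ratio leaves out the error of the DMSO count and is not a lower bound. The gene was not tested in the planned fit; with no filter on low counts it was called lower with dTAG (edgeR adjusted p = 0.020).

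Epcam rose in both comparisons, and much more without LIF. Its level was 236 and 229 CPM in DMSO and 302 and 312 CPM with dTAG, a separation without overlap and a 1.32-fold rise (log2 fold change 0.40, SE 0.05, edgeR adjusted p = 9.7e-07). With LIF the WT libraries held 175 and 178 CPM, and without it 646 and 620.1 CPM. This was a 3.59-fold rise, also without overlap (log2 fold change 1.84, SE 0.05, edgeR adjusted p = 1.7e-20). The response to dTAG minus that to LIF withdrawal was -1.44 (SE 0.08, edgeR adjusted p = 1.3e-14). Relative to Cdh1 and per length, Epcam went from 0.216 in both DMSO libraries to 0.337 and 0.351 with dTAG, and from 0.15 and 0.158 with LIF to 0.582 and 0.504 without.

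Cldn6, a claudin of early embryonic epithelia that is largely silent in adult tissue, showed the largest rises of the 7 tested members in both comparisons. It was read at 25.5 and 21.4 CPM in DMSO and at 105 and 94.2 CPM with dTAG. All dTAG values were above all DMSO values, by 4.31-fold (log2 fold change 2.11, SE 0.09, edgeR adjusted p = 1.8e-16). WT cells went from 28.3 and 28.6 CPM with LIF to 363 and 358 CPM without it, a 12.7-fold rise (log2 fold change 3.66, SE 0.08, edgeR adjusted p = 2.3e-23). The difference of the 2 responses was -1.56 (SE 0.13, edgeR adjusted p = 5.7e-11).

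Cldn4 and Cldn3, neighbours on chromosome 5 and both receptors of a clostridial enterotoxin, rose in both comparisons too. Cldn4 was read at 181 and 174 CPM in DMSO and at 427 and 430.2 CPM with dTAG, with no overlap and a 2.42-fold rise (log2 fold change 1.27, SE 0.06, edgeR adjusted p = 1.2e-15). With LIF it stood at 247 and 222 CPM and without it at 338 and 325 CPM, a 1.41-fold rise without overlap (log2 fold change 0.50, SE 0.06, edgeR adjusted p = 2.4e-08). Cldn4 was the single tested member with a larger rise after dTAG than after LIF withdrawal by the test of the difference, which was 0.78 (SE 0.08, edgeR adjusted p = 1.0e-08). Cldn3 went from 17.8 and 19.8 CPM in DMSO to 34.8 and 33.7 CPM with dTAG, and from 19.3 and 18.5 CPM with LIF to 34.7 and 31.2 CPM without it. Neither pair of groups overlapped; the rises were 1.81-fold (edgeR adjusted p = 5.6e-07) and 1.75-fold (edgeR adjusted p = 3.5e-07). For Cldn3 a difference between the 2 responses was not called, with 0.04 and a 95% interval of -0.28 to 0.37 (edgeR adjusted p = 0.84). The gene Wbscr25 overlaps Cldn3 in the RefSeq table, held at most 3 reads in any library, and could take reads of Cldn3 into the ambiguous class.

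Cldn7, the claudin that EPCAM binds, parted from the other claudins. It was counted at 11 and 19 reads (1.54 and 1.67 CPM) in DMSO and at 10 and 6 reads (1.09 and 0.665 CPM) with dTAG. The dTAG values were the lower ones, without overlap, yet the log2 fold change of -0.87 had a 95% interval of -1.75 to 0.01 and was not called (edgeR adjusted p = 0.11). The groups held 30 and 16 reads, and a change of the estimated size was not detectable at this depth. In WT cells Cldn7 went from 51 and 27 reads (4.5 and 3.18 CPM) with LIF to 350 and 215 reads (29.9 and 29.3 CPM) without it. That rise was 7.54-fold (log2 fold change 2.91, SE 0.17, edgeR adjusted p = 3.7e-14), and the responses differed by -3.78 (SE 0.47, edgeR adjusted p = 1.7e-07). All but 1 of its 689 reads came from 1 of its 2 accessions.

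**Figure D2:**
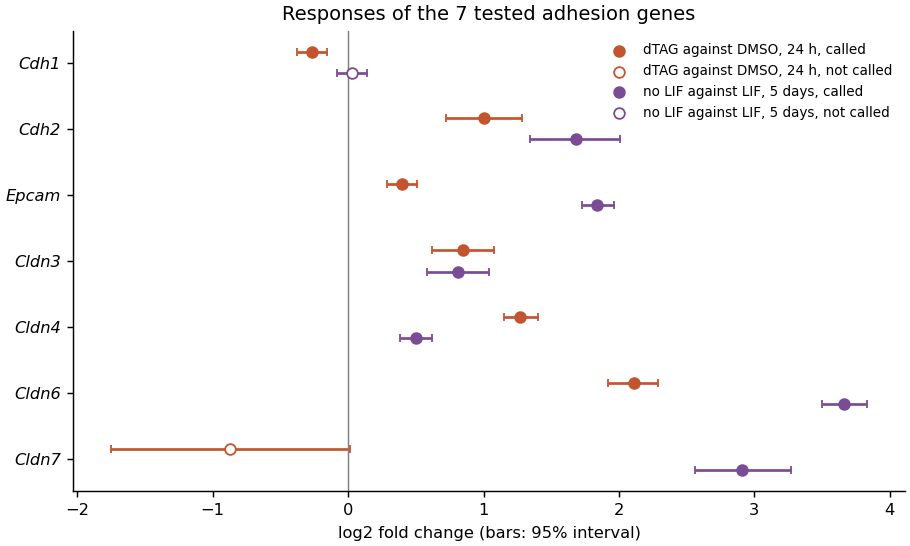
Log2 fold change (horizontal axis) of the 7 tested genes with dTAG against DMSO (orange) and without LIF against LIF (purple); bars are 95% intervals, filled points were called at an adjusted p of 0.05 and open points were not. Cldn6 lies farthest right in both comparisons, and Cdh1 lies near 0 without LIF.

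Counted together, 5 of the 8 members were called higher with dTAG (Cdh2, Epcam, Cldn3, Cldn4, Cldn6), 1 was called lower (Cdh1), 1 was not called and 1 was not tested. Over all tested genes 40.5% were called in this comparison, 20.1% higher and 20.3% lower. The libraries of the 2 groups did not overlap for any of the 7 tested members, nor for 70.2% of all tested genes (34.8% higher, 35.4% lower). The members' median log2 fold change was 0.85, beside 0.00 over all tested genes. Without LIF, 6 were called higher (the same 5 and Cldn7), 0 lower, 1 was not called and 1 was not tested, where 68.4% of all tested genes were called, 34.0% higher and 34.4% lower. Here 6 of the 7 were without overlap, all higher, beside 81.5% of all tested genes (40.3% higher, 41.2% lower). Their median was 1.68, beside -0.02 over all tested genes. For the difference of the 2 responses, 5 members were called lower and 1 higher, and 55.0% of all tested genes were called, 26.4% lower and 28.6% higher. The dTAG and LIF comparisons use separate control libraries but differ in line, agent and time.

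**Figure D3:**
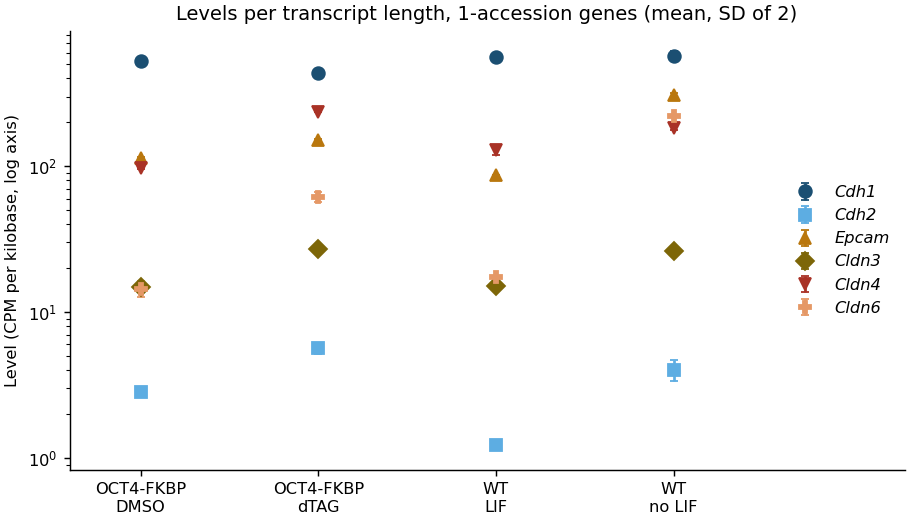
Level in CPM per kilobase of transcript (vertical axis, log scale) of the 6 genes with 1 accession in the 4 groups; points are means and bars the SD of 2 libraries. Cdh1 is the highest and Cdh2 the lowest of the 6 in every group, and Cldn6 moves from the level of Cldn3 in the controls to above Cldn4 without LIF.

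Per length, the order of the claudins differed between groups. Cldn4 stood at 97.7 ± 2.48 CPM per kilobase in DMSO, 236 ± 1.37 with dTAG, 129 ± 9.71 with LIF and 182 ± 5.18 without LIF (SD, n = 2). Cldn6 stood at 14.5 ± 1.82, 61.4 ± 4.75, 17.5 ± 0.108 and 222 ± 2.48 CPM per kilobase in the same groups (SD, n = 2). The ratio of Cldn6 to Cldn4 was 0.158 and 0.137 in DMSO, 0.276 and 0.245 with dTAG, and 0.128 and 0.144 with LIF. Without LIF it was 1.2 and 1.23, so Cldn6 exceeded Cldn4 in both of these libraries and in none of the other 6. The ratio of Cldn4 to its neighbour Cldn3 stayed between 6.1 and 8.85 in all 8 libraries. Epcam stood at 114 ± 2.25 and 150.4 ± 3.48 CPM per kilobase in DMSO and with dTAG, and at 86.5 ± 1.19 and 310.3 ± 8.87 with and without LIF (SD, n = 2).

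The 2 control groups differed from each other for several members. The tagged line in DMSO was compared with WT cells with LIF; the tag, the clone, the DMSO and the culture cannot be told apart there, and the comparison shares its libraries with the 2 above. Of the 8 members, 2 were called higher in the tagged line and 3 lower, 2 were not called and 1 was not tested, where 40.6% of all tested genes were called, 18.5% higher and 22.1% lower. All but Cldn3 of the 7 tested members were without overlap, 2 higher and 4 lower, beside 67.5% of all tested genes (30.8% higher, 36.8% lower). Cdh2 was 2.28-fold higher (log2 fold change 1.19, SE 0.17, edgeR adjusted p = 4.8e-06) and Epcam 1.32-fold higher (edgeR adjusted p = 3.0e-06). Cldn4 was 1.33-fold lower (edgeR adjusted p = 5.4e-06) and Cldn7 2.41-fold lower (log2 fold change -1.27, SE 0.30, edgeR adjusted p = 0.0014). Cldn6 was 1.23-fold lower (edgeR adjusted p = 0.024), a call that was lost without DMSO replicate 2 (adjusted p = 0.55), WT LIF replicate 1 (0.058), WT LIF replicate 2 (0.076) or WT no LIF replicate 2 (0.057). Cdh1 gave -0.10 with a 95% interval of -0.21 to 0.01 (edgeR adjusted p = 0.16), and Cldn3 0.00 with an interval of -0.25 to 0.25 (edgeR adjusted p = 0.99). For Cldn3 the 2 control groups overlapped, as did the dTAG and no-LIF groups at the upper end of its order.

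Of the genes lying next to the members, 2 are described here. Cldn9, beside Cldn6 on chromosome 17, went from 2.11 and 2.29 CPM in DMSO to 12.9 and 11.5 CPM with dTAG, a 5.49-fold rise (edgeR adjusted p = 3.0e-09). It stood at 3.18 and 2.59 CPM with LIF and at 1.96 and 3 CPM without it, where Cldn6 rose and Cldn9 was not called (log2 fold change -0.30, edgeR adjusted p = 0.39). Tango6, beside Cdh1, was called in neither comparison (0.10 and -0.18).

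The wider junction genes were described in 8 lists, which were chosen with earlier results of these data known.

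**Figure D4:**
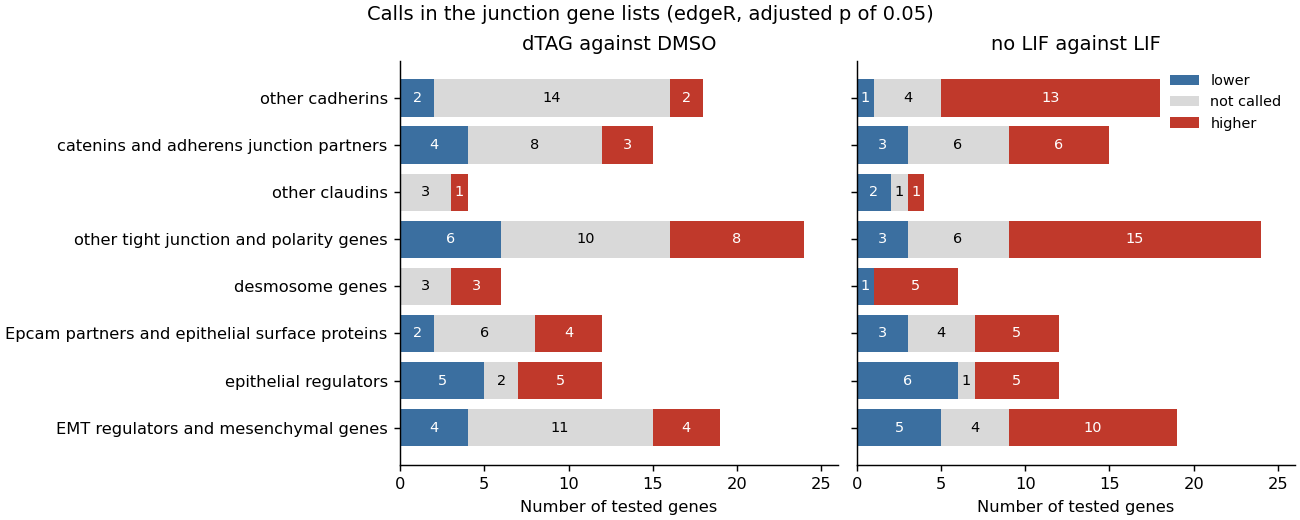
Number of tested genes (horizontal axes) called lower (blue), not called (grey) or called higher (red) in each of 8 junction gene lists, with dTAG against DMSO (left) and without LIF against LIF (right), at an edgeR adjusted p of 0.05. With dTAG the other cadherins are mostly uncalled, 14 of 18, and without LIF 13 of 18 were called higher. Of all tested genes 40.5% were called with dTAG and 68.4% without LIF.

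Among 18 tested of 42 listed other cadherins, 2 were called higher and 2 lower with dTAG. This is a share of 22.2% called where all tested genes gave 40.5%. Without LIF 13 were called higher and 1 lower, with a median log2 fold change of 3.51. That share was 77.8%, where all tested genes gave 68.4%. Of these 18 genes 9 reached the filter's minimum in both libraries of only 1 group, so both counts depend on the filter: such genes are high in that group and have few reads in the others, where they could hardly be called. Pcdh1, a protocadherin of epithelia, stood at 12.4 and 11.4 CPM in DMSO, 40.2 and 37.8 CPM with dTAG, 8.92 and 9.65 CPM with LIF, and 169 and 189.9 CPM without (edgeR adjusted p = 2.6e-12 and 1.9e-22). Pcdh18, another protocadherin, rose 34.6-fold with dTAG and 65.1-fold without LIF, from 5 and 6 reads in the controls. Cdh4, R-cadherin, with 2 accessions, fell 2.59-fold with dTAG, and Celsr1, a planar polarity cadherin, fell 3.82-fold without LIF.

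Of 22 listed catenins and other adherens junction partners 15 were tested. With dTAG 3 were called higher and 4 lower, 46.7% of those tested beside 40.5% of all genes. Without LIF 6 were called higher and 3 lower, 60% beside 68.4%, and the medians were -0.02 and 0.04. Jup, plakoglobin, which links cadherins to the cytoskeleton, had 231 ± 0.45 CPM under DMSO and 99 ± 1.09 CPM under dTAG (SD, n = 2), 2.33-fold lower (edgeR adjusted p = 4.6e-15). Between LIF and no LIF it stood at 241 ± 7.94 and 249 ± 6.84 CPM (SD, n = 2) and was not called (edgeR adjusted p = 0.49). Nectin1, an adhesion receptor of the same junctions, fell 1.48-fold with dTAG, and Lima1, an actin-binding protein, fell 2.99-fold with dTAG and 3.4-fold without LIF. Without LIF, Vcl, the actin linker vinculin, rose 3.16-fold, the LIM protein gene Ajuba 3.08-fold and Nectin2 2.01-fold. Lima1 and Nectin2 have 2 accessions each.

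Tight junction and polarity genes outside the claudins were called higher in 8 of 24 cases and lower in 6 with dTAG, and in 15 and 3 cases without LIF (medians 0.27 and 0.69). These are 58.3% and 75% of the tested genes, beside 40.5% and 68.4% of all genes, and 5 of the 24 reached the filter's minimum in 1 group only. Jam2, a junctional adhesion molecule of the immunoglobulin family, fell in both comparisons. It went from 483 and 477 CPM in DMSO to 29.2 and 30.1 CPM with dTAG, 16.2-fold lower (edgeR adjusted p = 7.3e-24), and from 327 and 363 CPM with LIF to 7.09 and 7.5 CPM without, 47.4-fold lower (edgeR adjusted p = 1.3e-25). Amot, angiomotin, a scaffold of polarity and Hippo signalling with 2 accessions, rose 11.4-fold and 76.8-fold. Its relative Amotl1 fell 2.63-fold with dTAG and rose 1.79-fold without LIF, and Amotl2 rose 1.24-fold and 3.82-fold.

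Other claudins gave few reads. Of 23 listed genes only 4 were tested, and 3 of these reached the filter's minimum in 1 group only. With dTAG only Cldn9, described above, was called, and without LIF 1 was called higher and 2 lower. These are 25% and 75% of the 4, beside 40.5% and 68.4% of all genes. The 3 called without LIF, Cldn1, Cldn5 and Cldn19, are those that reached the minimum in 1 group only. Cldn1 did so without LIF, and Cldn5 and Cldn19 with LIF. Both counts therefore depend on the filter. Cldn1, a claudin of mature epithelia, was counted in 95 reads without LIF and 0 with it. The level without LIF was 33-fold above a floor of 3 reads over the LIF group. Cldn5, the endothelial claudin, stood at 4.06 and 4.35 CPM with LIF and 0.341 and 0.545 CPM without (edgeR adjusted p = 6.3e-07). Cldn19, with 2 accessions, was counted in 1 read without LIF and 34 with it, 32.7-fold lower (exact interval 5.48 to 1328).

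Desmosomes, the junctions that anchor keratin filaments, had 6 tested genes. With dTAG 3 were called higher and 0 lower, and without LIF 5 were called higher and 1 lower, which is 50% and 100% of the 6, beside 40.5% and 68.4% of all genes. Dsp, desmoplakin, rose 1.81-fold and 1.48-fold. Perp went from 5.41 ± 0.31 to 9.08 ± 1.39 CPM with dTAG and from 4.1 ± 0.314 to 73.6 ± 2.93 CPM without LIF (SD, n = 2), a 17.7-fold rise (edgeR adjusted p = 1.3e-19). Pkp2, plakophilin 2, rose 4.47-fold without LIF. The desmosomal cadherin Dsg2 rose 1.18-fold with dTAG and was the 1 that fell without LIF, by 2.74-fold.

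Epcam's partners and other epithelial surface proteins went both ways, with 4 of 12 called higher and 2 lower with dTAG and 5 and 3 without LIF. The called shares, 50% and 66.7%, stand beside 40.5% and 68.4% of all genes, and 2 of the 12 reached the filter's minimum in 1 group only. The membrane-bound serine proteases Tmprss2 and Prss8 rose 18.6-fold and 3.08-fold with dTAG and 21.1-fold and 4.62-fold without LIF. The folds of Tmprss2 start from few reads, 19 in DMSO and 11 with LIF. Cd24a fell 2.07-fold with dTAG and rose 4.91-fold without LIF. Cd9, a tetraspanin, was not called with dTAG (edgeR adjusted p = 0.066) and fell 4.25-fold without LIF, from 1146 ± 20 to 269 ± 11.2 CPM (SD, n = 2).

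Genes listed as epithelial regulators, most but not all of them transcription factors, were called in 10 of 12 cases with dTAG, 5 each way. Without LIF 11 were called, 5 higher and 6 lower. These are 83.3% and 91.7% of the tested genes, beside 40.5% and 68.4% of all genes, and 1 of the 12 reached the filter's minimum in 1 group only. Grhl3 went from 84.1 and 82.5 CPM in DMSO to 209 and 192 CPM with dTAG, 2.41-fold higher (edgeR adjusted p = 2.7e-14), and from 102 and 105 CPM with LIF to 22.2 and 20.6 CPM without, 4.81-fold lower (edgeR adjusted p = 2.7e-18). Its relative Grhl2 moved the opposite way in each comparison. It went from 7.72 and 6.86 to 4.49 and 4.1 CPM with dTAG, 1.68-fold lower, and from 3.62 and 4.23 to 93.8 and 100.5 CPM without LIF, 24.9-fold higher (edgeR adjusted p = 4.1e-21). Cdx2, a trophectoderm and intestinal factor, rose 5.43-fold with dTAG and 2.94-fold from 0.794 CPM without LIF, and Klf4 fell in both comparisons, 2.16-fold and 29.8-fold.

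EMT regulators and mesenchymal genes had 19 tested members, 4 called higher and 4 lower with dTAG and 10 and 5 without LIF. The called shares were 42.1% and 78.9%, beside 40.5% and 68.4% of all genes, and 4 of the 19 reached the filter's minimum in 1 group only. Snai1, a repressor of Cdh1, rose in both. It stood at 4.07 and 3.34 CPM in DMSO and 14.2 and 13.2 CPM with dTAG, 3.76-fold higher (edgeR adjusted p = 4.0e-08), and at 0.618 and 1.29 CPM with LIF and 5.12 and 6.27 CPM without, 6.07-fold higher (edgeR adjusted p = 1.1e-07). Vim, the intermediate filament vimentin, rose 1.4-fold with dTAG and fell 3.18-fold without LIF. Msn, moesin, rose 1.36-fold with dTAG. Fn1, fibronectin, fell 7.16-fold without LIF in the reads that distinguish its 7 accessions. Tagln, which encodes the actin-binding protein transgelin, and Acta2, a smooth muscle actin, rose 376-fold and 245-fold without LIF, from 1.94 ± 0.25 and 0.5 ± 0.0418 CPM (SD, n = 2). Acta2 was below the filter's minimum of 1.08 CPM in the other 3 groups and was tested only through the group where it is high. Zeb1 and Zeb2, with 3 and 7 accessions, held 3 reads and 1 read over the 8 libraries and were not tested.

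Markers of other cell types moved with these groups. The 6 listed surface epithelium markers summed to 23.4 to 26.1 CPM in DMSO, 69.4 to 69.7 with dTAG, 17.5 to 18.8 with LIF and 1316 to 1416 without; the simple keratins Krt8 and Krt18 made up most of this, and Krt5, Krt14 and Trp63 were at 0 reads in all groups. All 3 tested were called higher in both comparisons, beside 20.1% of all tested genes called higher with dTAG and 34.0% without LIF. The 10 trophoblast markers summed to 37.2 to 41.7 CPM in DMSO and 200.2 to 221 with dTAG, and to 9.27 to 10.1 and 103 to 110.2 with and without LIF, with Gata3 at 0 in every group. Cdx2 carried most of the first pair, at 32.9 and 180.3 CPM, and was 43.1-fold higher in DMSO than in WT cells with LIF; 3 of 6 tested were called higher with dTAG, and Eomes and Hand1 were not called. Without LIF 5 were called higher and 1 lower. The sum without LIF was mostly the keratin gene Krt7, at 71.4 CPM, with Hand1 at 21.5 CPM and Cdx2 at 2.12 CPM. The called shares were 50% with dTAG and 100% without LIF, beside 40.5% and 68.4% of all genes. Of the 6 tested, 2 reached the filter's minimum in 1 group only.

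Endoderm markers, 9 genes, summed to at most 1.41 CPM in DMSO and 21.6 with dTAG, and to at most 2.65 CPM with LIF and 68.7 without, with Gata4 and Foxa2 at 0 throughout. Each sum was mostly 1 gene, Gata6 at 18.7 CPM with dTAG and Cubn at 60.1 CPM without LIF. With dTAG 1 of 3 tested was called higher and 0 lower, and without LIF all 3 were called higher. The called shares, 33.3% and 100%, stand beside 40.5% and 68.4% of all genes. Of the 3, 2 reached the filter's minimum in 1 group only, so these counts depend on the filter. Fibroblast markers, 7 genes, summed to 21.3 to 23.4 CPM in DMSO and 16.2 to 19.2 with dTAG, and to 8.92 to 9.29 with LIF and 19.8 to 20.4 without. Of 4 tested, 1 was called higher and 1 lower with dTAG. Without LIF 3 were called higher and 0 lower, Col1a2 by 10.2-fold and Col1a1 by 2.17-fold. The called shares, 50% and 75%, stand beside 40.5% and 68.4% of all genes. Of the 4, 1 reached the filter's minimum in 1 group only. Postn and Dcn were at 0. Mesoderm and streak markers, 7 genes, summed to 7.92 to 10.4 CPM in DMSO and 4.49 to 5.1 with dTAG, and to 6.97 to 8.59 with LIF and 37 to 37.9 without. Of 5 tested, 0 were called higher and 1 lower with dTAG, and 4 higher and 1 lower without LIF. These are 20% and 100% of the 5, beside 40.5% and 68.4% of all genes. Here 2 of the 5 reached the filter's minimum in 1 group only.

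Neural markers, 9 genes, were mostly lower with dTAG and mostly higher without LIF, and Cdh2 was higher in both. With dTAG 4 of 6 tested were called lower and 1 higher, and without LIF 4 were called higher and 1 lower. The called share was 83.3% in each comparison, beside 40.5% and 68.4% of all genes. Of all tested genes 20.3% were called lower with dTAG and 34.0% higher without LIF. Among the 6, 1 reached the filter's minimum in 1 group only. Sox1 and Sox3, transcription factors of neural progenitors, fell 10-fold and 3.53-fold with dTAG and rose 2.3-fold and 25.7-fold without LIF. Both falls rest on few reads, from 53 in DMSO to 5 with dTAG for Sox1 and from 15 to 4 for Sox3. Sox3 was below the filter's minimum in DMSO and with dTAG. The summed level, carried by Nes, Stmn2 and Tubb3, was 426 to 433 CPM in DMSO, 365 to 367 with dTAG, 421 to 478 with LIF and 532 to 559.6 without, with Pax6 at 0. Of the markers named at 0, all but Krt5 have 2 or more accessions, so their 0 says nothing about expression. The part of these cell types in the members' results was not tested, and in bulk RNA more cells of a type and more RNA per cell cannot be told apart.

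By shape over the 8 libraries, on log2 CPM, the members fell into no single pattern. Cldn6 and Epcam correlated at r = 0.95 and Cldn3 and Cldn4 at 0.92, while Cdh1 gave 0.03 with Cldn6, 0.11 with Epcam and -0.58 with Cdh2; the libraries come in 4 groups of 2, so these values describe the group means and carry no test. Among 7048 genes with a mean of at least 5 CPM, those most like Cdh1 were BC003965 (r = 0.9809), Septin3 (0.9791) and Tbc1d9 (0.9784). Most like Cdh2 were Zc3h4 (0.9930), Crtc1 (0.9924) and Cpne2 (0.9853). Pik3cb (0.9970), Tspan6 (0.9962) and Zfp644 (0.9962) were nearest to Epcam. The claudins had Slc35b4 (0.9979) nearest to Cldn6, Itm2c (0.9957) to Cldn4, Ing5 (0.9878) to Cldn3 and Kif5c (0.9980) to Cldn7.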

How the data were processed

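The data are poly(A) RNA-seq of 8 libraries, from a strand-marking kit with single-end reads, per the labels. Each library's deposited table holds the authors' raw counts by RefSeq accession. The submitters' processing notes name HISAT2, HTSeq and mm9 without versions; no source used here gives the strand setting. Ambiguous reads were 42.5% of counted plus ambiguous reads, and reads without a feature 10.4% to 14.9% of uniquely aligned reads; both stayed out of library sizes and tests. Accessions were named by the RefSeq table of GRCm38 (41325 of 41565) and by GENCODE (126), for names and neighbours, and counts were summed per symbol. Lengths are spliced lengths of the matching GENCODE transcripts, and promoter coordinates are GRCm38.p6, not mm9.

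Counts were fitted in edgeR 4.0.16 (R 4.3.3) with TMM, filterByExpr, glmQLFit and glmQLFTest, in one model of the 4 groups over 8 libraries; adjusted p-values are Benjamini-Hochberg over 10311 genes. SEs come from the fold change and the F statistic. On simulated counts with 10311 genes, 82.1% of 2-fold and 56.7% of 1.5-fold changes were recovered for dTAG against DMSO, with 6.02% of calls false. For no LIF against LIF 80.6% and 55.2% were recovered, with 5% false. Only 67 genes were changed 1.5-fold, 67 2-fold and 66 4-fold, and each gene's spread was set by the trend over all genes. Far more genes were called in the data, so these rates may not carry over. From each junction list, the 3 tested genes of smallest adjusted p in each of the dTAG and LIF comparisons were named, and the 3 genes most correlated with each tested member were found; Zeb1, Zeb2 and the neighbours of the members were named after their values were seen. Some genes that the rule names are not reported here. The members and lists were chosen with earlier results of these data known. Alternatives were RLE scaling, DESeq2 1.42.0, other filters, fewer libraries, a replicate block, each library left out, single accessions and 1-accession genes.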

Additional observations from a re-analysis of the deposited data

Results flagged for a closer look

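For 6 of the 7 tested members the response to dTAG differed from the response to LIF withdrawal in a test of the difference itself (edgeR adjusted p from 1.3e-14 to 0.010), where 55.0% of all tested genes differed. The dTAG response minus the LIF response, on the log2 scale, was -0.29 for Cdh1, -0.68 for Cdh2, -1.44 for Epcam, 0.78 for Cldn4, -1.56 for Cldn6 and -3.78 for Cldn7. Cell line, agent and time differ between the 2 comparisons and cannot be told apart.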

How the results depend on the processing

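Over the 16 alternatives, 425 of 437 values of single members kept their direction and their side of the threshold. No called value reversed, and 5 values near 0 that were not called changed sign. The 7 lost calls were all of Cldn6 in DMSO against WT LIF, whose adjusted p in these ran from 0.053 to 0.55; besides the libraries named above it was lost with DESeq2 (0.078), no filter (0.053) and only the 4 libraries compared (0.079). Members called ranged from 6 to 7 with dTAG (7 with no filter, by Cdh3), 5 to 6 without LIF, 5 to 7 for the difference and 4 to 5 between controls; with only 1-accession genes Cldn7 drops out. All genes called ranged from 3159 to 4662, 5809 to 7511, 4699 to 5801 and 2899 to 4263 in the same order. Replicate numbers are shared only in name (correlations of deviations from group means between -0.01 and 0.05); with a replicate block 4214, 7082, 5690 and 4205 genes were called, and 6, 6, 6 and 5 members, with no member's call changed. For the difference, a fit of only the libraries compared is the fit of all 8. Where a left-out library leaves 1 in a group, that library is assumed to vary like the others. Depth limits Cldn7 and Cdh3, as given above.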
